A study of Mus musculus with 8 samples.

Results

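A gene desert is a long stretch of chromosome without protein-coding genes. The regions described here are the deserts of mouse chromosome 4, defined as intervals of at least 500 kb between consecutive protein-coding genes of the RefSeq annotation. The annotation holds 1328 protein-coding genes on the chromosome, and 49 intervals between them reached 500 kb. The interval from Klf4 to Actl7b (chr4:55532476-56740004), which lies beside the gene named in the genotype, was left out, and 48 deserts remained. Of these, 47 had at least 1 scored bin lying wholly inside them. The rule uses gene positions and lengths only and no score, although deserts were picked as a subject with earlier results of these data known.

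Replication timing was profiled with Repli-seq in embryonic stem cells of the mouse (mESC), pluripotent cells grown from the early embryo. The control was the JM8N4 line without the deletion, and the other group was labelled as a Klf4 enhancer deletion. Both groups were pulse-labelled with BrdU, a thymidine analogue taken up into newly made DNA, for 2 h. Early and late S-phase cells were then sorted, and their BrdU-substituted DNA was pulled down with an antibody and sequenced. The 8 libraries gave 4 profiles, control 1 and 2 and deletion 1 and 2. Culture conditions, the position and zygosity of the deletion, and whether the 2 deletion profiles came from 1 clone or several are not given in the sources used here. No expression was measured, so the labelled cell type could not be set against marker genes.

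Replication timing is the order in which parts of the genome are copied during S phase. Large domains fire their origins early or late, and the stretches between them, timing transition regions, are copied progressively later away from the early domain. Gene-rich, transcriptionally open chromatin is generally copied early, and long gene-poor stretches, often attached to the nuclear lamina, are generally copied late. The deposited value is a timing score for each 5 kb bin, without a stated unit. A bin is called early here where its score is above 0 and late where it is below 0, and a region is called late in every profile only where all 4 profiles agree. The table does not state which sign is early. Early was given to the positive side because 1037 of the 1301 protein-coding genes with a score were positive in every profile. The lower scores of deserts are therefore a measurement, while calling them late rests on that reading of the sign. Of the 31301 positions of the chromosome, 30659 had a score in every profile and 642 did not. Of the unscored ones, 491 fell in deserts. The number of reads behind a score is unknown, so each value is given with its spread over profiles and no counting interval.

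The deserts hold no protein-coding gene, but noncoding genes start inside them. The start windows of a few of these genes, 250 bases before to 50 bases after the annotated start, are printed to show the sequence found in deserts of different timing. They are taken from RefSeq (GRCm38.p6, the same build as mm10) and read 5 prime to 3 prime on the strand of the gene, with each CG dinucleotide in capitals. The motif is the letters CG, which reads the same on both strands, and it was present in 96.6% of the 2053 windows of this length on the chromosome. The score given with each window is the mean over the 4 profiles of the single bin that holds the annotated start. Gm12916 (chr4:124299874-124300173, minus strand) lies in the earliest desert, Rragc to Pou3f1, and scored 2.87. Gm31115 (chr4:64282468-64282767, plus strand) lies in the desert of lowest mean score, Tnc to Pappa, and scored -2.73. 4930556G01Rik (chr4:30664346-30664645, plus strand) lies in the longest desert, Epha7 to Map3k7, and scored -2.63. Gm35634 (chr4:131408889-131409188, plus strand) lies in the desert with the most negative deletion minus control difference, Matn1 to Ptpru, and scored -1.77. C630043F03Rik (chr4:72200994-72201293, plus strand) lies at the end of the desert from Tle1 to Aldoart1, 0.254 kb from Tle1. It scored -1.69, in a bin that also overlaps Tle1 and so is not among the desert bins. Its window had the most CG dinucleotides of the long noncoding RNA starts in deserts. All 5 are long noncoding RNA genes.
Gm12916: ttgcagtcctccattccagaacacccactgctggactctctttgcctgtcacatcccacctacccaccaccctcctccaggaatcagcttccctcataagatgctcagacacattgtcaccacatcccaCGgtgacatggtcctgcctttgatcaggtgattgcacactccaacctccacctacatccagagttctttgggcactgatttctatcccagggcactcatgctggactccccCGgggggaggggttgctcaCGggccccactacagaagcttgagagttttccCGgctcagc
Gm31115: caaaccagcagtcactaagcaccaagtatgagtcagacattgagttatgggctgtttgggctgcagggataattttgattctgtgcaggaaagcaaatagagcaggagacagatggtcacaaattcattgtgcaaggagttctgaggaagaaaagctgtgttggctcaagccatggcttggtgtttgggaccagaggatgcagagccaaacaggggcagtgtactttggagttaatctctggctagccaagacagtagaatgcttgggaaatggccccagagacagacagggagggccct
4930556G01Rik: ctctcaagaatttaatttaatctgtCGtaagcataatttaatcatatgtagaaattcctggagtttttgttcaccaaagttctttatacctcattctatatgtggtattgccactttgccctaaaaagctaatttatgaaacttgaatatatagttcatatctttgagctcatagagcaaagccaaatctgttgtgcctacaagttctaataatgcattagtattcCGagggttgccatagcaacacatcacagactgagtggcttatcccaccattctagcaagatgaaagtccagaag
Gm35634: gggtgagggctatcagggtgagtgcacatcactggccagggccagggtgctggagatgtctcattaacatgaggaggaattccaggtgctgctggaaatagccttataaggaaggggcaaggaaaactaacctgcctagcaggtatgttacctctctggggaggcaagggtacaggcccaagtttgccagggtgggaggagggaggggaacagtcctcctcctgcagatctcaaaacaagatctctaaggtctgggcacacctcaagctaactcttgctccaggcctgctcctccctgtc
C630043F03Rik: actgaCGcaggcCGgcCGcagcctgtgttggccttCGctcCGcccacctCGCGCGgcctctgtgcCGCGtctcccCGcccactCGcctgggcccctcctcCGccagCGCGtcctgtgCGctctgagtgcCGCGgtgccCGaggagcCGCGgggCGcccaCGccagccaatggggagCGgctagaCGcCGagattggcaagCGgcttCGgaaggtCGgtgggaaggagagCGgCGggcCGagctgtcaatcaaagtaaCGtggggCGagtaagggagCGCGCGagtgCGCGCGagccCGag

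The counts of CG were 4 for Gm12916, 0 for Gm31115, 2 for 4930556G01Rik, 0 for Gm35634 and 41 for C630043F03Rik. C630043F03Rik was printed for its high count, so these 5 windows are examples only. A mature microRNA, mmu-miR-3471 of Mir3471-1 (chr4:10845585-10845606, minus strand), was the only microRNA matched inside a desert, Gdf6 to 2610301B20Rik. Its seed, bases 2 to 8, is in capitals.
mmu-miR-3471: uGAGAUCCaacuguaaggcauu

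The bin that holds this microRNA scored 2.53 and 2.66 in the control profiles and 2.59 and 3.08 in the deletion profiles. It is thus early in all 4 profiles although the desert around it has a negative mean.

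Deserts were the later-scoring part of the chromosome in every profile. Their 9674 scored bins span 48.37 Mb, 31.6% of the scored bins. The mean score of these bins was -2.02 and -1.79 in the 2 controls and -1.94 and -1.52 in the 2 deletion profiles. All other bins averaged 0.558 and 0.877 in the 2 controls and 0.625 and 1.08 in the 2 deletion profiles. They include the 241 bins of the left-out Klf4 to Actl7b interval. Desert bins were lower by a similar amount in each profile, with differences of -2.58 and -2.67 in the controls against -2.56 and -2.60 after deletion (mean -2.60 ± 0.045, SD, n = 4 profiles). In each genotype the profile numbered 2 scored higher than the profile numbered 1, inside and outside deserts. The difference between the sets varied less over profiles than either level. The columns had been scaled to a common interquartile range, which constrains such a difference and leaves the level of a profile free. The small SD and the similar amount in both genotypes are therefore not independent of this scaling. How much of them it accounts for was not tested. Neighbouring bins are not independent and the 4 profiles are the replicates, so no p-value is attached to the bins.

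Of the desert bins, 87.8% were late in every profile and 7.54% were early in every profile. Among all other bins, the left-out Klf4 to Actl7b interval included, these shares were 34.2% and 59.5%. Read the other way, deserts held 54.2% of the 15673 bins that were late in every profile and 5.51% of the 13221 bins that were early in every profile. They held 70.4% of the 3066 bins that make up the lowest 10% of mean scores, all under -2.70. Deserts thus took a larger part of the lowest scores than of late bins as a whole, while nearly all early bins lay elsewhere.

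By desert, 38 of 47 had a mean score below 0 in every profile, 1 had a mean above 0 in every profile and 8 changed sign between profiles. The median of a whole profile ran from -0.79 in control 1 to -0.21 in deletion 2, so these counts depend on the level of each profile. With each profile centred on its own median, 37 deserts were late and 4 early. After quantile normalization 41 were late and 2 early. The scores as deposited are used below. The mean over profiles ran from -2.87 to 2.75 with a median of -1.93. In 25 deserts every scored bin was late in every profile. The 739 shorter intervals between protein-coding genes that hold a scored whole bin showed the reverse order, with 547 (74.0%) early in every profile, 159 (21.5%) late and 33 mixed. The plot of the desert means by profile shows the single early desert far above all others.

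**Figure D1:**
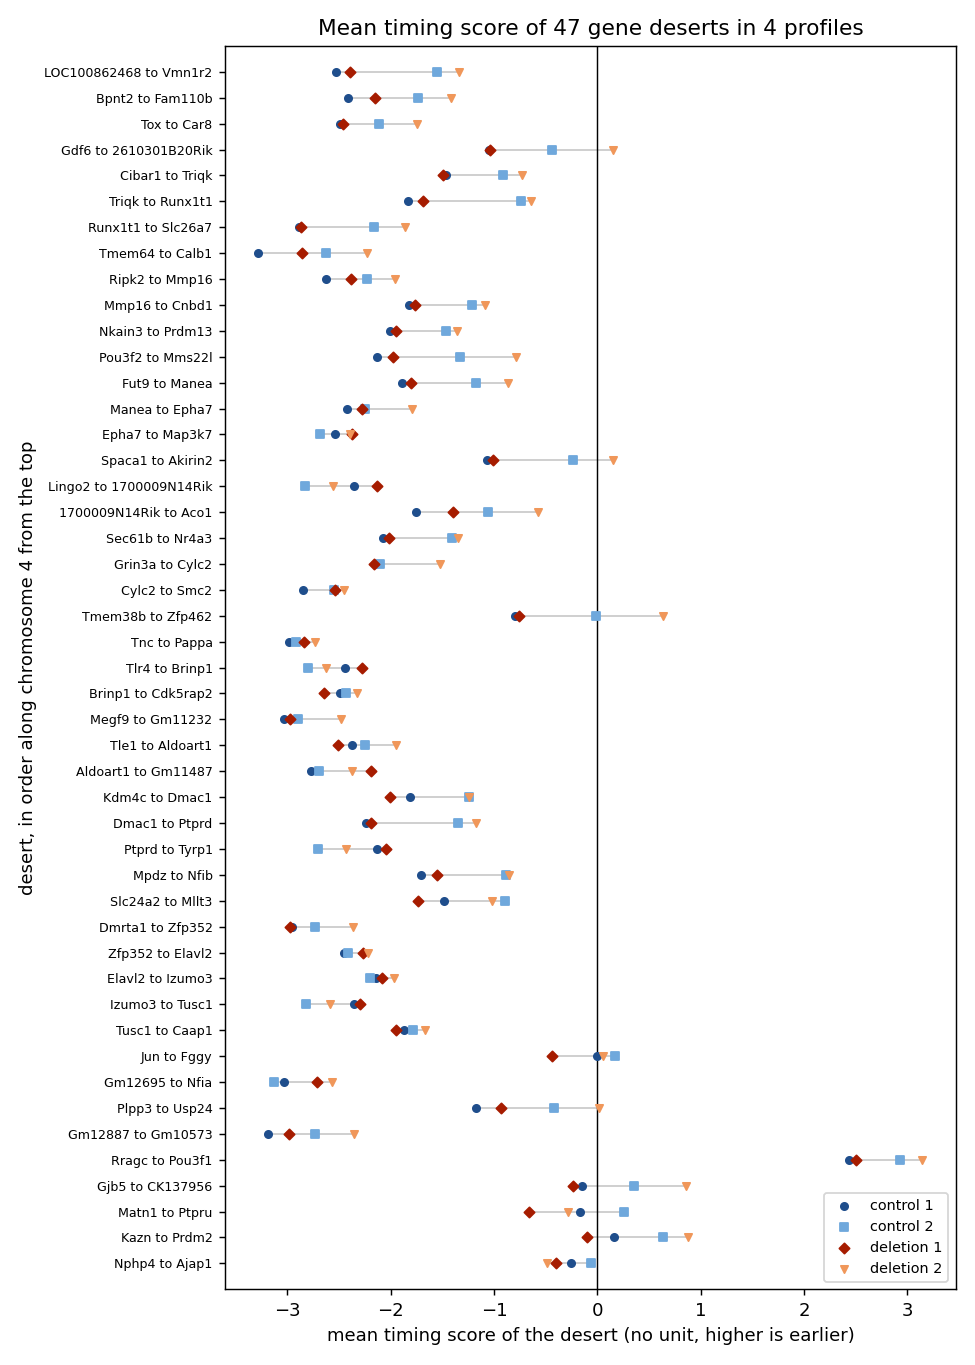
Mean timing score (no unit, higher is earlier) of each of the 47 measured deserts, in order along the chromosome, with 1 point for each of the 4 profiles. 38 deserts lie below 0 in every profile, and Rragc to Pou3f1, at 2.44 to 3.15, is the 1 desert above 0 in every profile.

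The longest deserts were all late in every profile. The longest, from Epha7, an ephrin receptor of axon guidance, to Map3k7, the kinase TAK1 of inflammatory and TGF-beta signalling, runs 2996 kb (chr4:28967504-31963491). It scored -2.54 and -2.69 in the controls against -2.38 and -2.39 after deletion. It also holds the lowest bin of any desert, at position 31265000, with a mean of -3.48. Its Map3k7 end scored 0.55, and 1.5% of its bins were early in every profile.

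The desert from Ptprd, a receptor tyrosine phosphatase of synapses, to Tyrp1, an enzyme of melanin synthesis, is 2622 kb long (chr4:78211743-80834122). It scored -2.13 and -2.70 in the controls against -2.05 and -2.43 after deletion. From Lingo2, a neuronal leucine-rich repeat protein, to 1700009N14Rik lie 2499 kb (chr4:36951745-39450292), which scored -2.35 and -2.83 in the controls against -2.13 and -2.56 after deletion. Both deserts were late in every bin, and in both the profiles numbered 2 were lower than those numbered 1. From Manea, a mannosidase of glycan processing, to Epha7 lie 2466 kb (chr4:26346919-28813065), with scores of -2.42 and -2.25 in the controls against -2.28 and -1.80 after deletion. Within this desert the mean score of a bin never rose above -0.73.

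The lowest means belonged to deserts of moderate length. From Tnc, tenascin C of the extracellular matrix, to Pappa, a protease of IGF-binding proteins, 1077 kb (chr4:64047016-65124173) scored -2.99 and -2.91 in the controls against -2.84 and -2.73 after deletion. From Gm12695 to Nfia, a transcription factor of glial development, 791.2 kb (chr4:96786831-97578065) scored -3.03 and -3.13 in the controls against -2.71 and -2.57 after deletion. From Megf9 to Gm11232, 1221 kb (chr4:70534929-71755745) scored -3.03 and -2.90 in the controls against -2.98 and -2.48 after deletion. From Gm12887 to Gm10573, 678.8 kb (chr4:121622126-122300877) scored -3.19 and -2.74 in the controls against -2.99 and -2.36 after deletion. These 4 deserts were late in all bins, and their means of -2.87, -2.86, -2.85 and -2.82 lie closer together than the profiles of any of them. Their order among themselves is therefore not resolved.

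The highest mean was that of the desert from Rragc, a GTPase of nutrient sensing by mTORC1, to Pou3f1, a POU-domain transcription factor of neural and Schwann cells. It is 720.6 kb long (chr4:123936998-124657645) and scored 2.44 and 2.93 in the controls against 2.50 and 3.15 after deletion. All of its bins were early in every profile, and bin means ran from 1.92 to 3.29. The flanking genes scored 2.92 and 2.96, so the interval lay close to the level of the genes around it. Its 10 noncoding genes are all annotated as long noncoding RNAs.

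The next highest deserts lay near 0 and were mixed. From Kazn, a desmosome-associated protein, to Prdm2, a PR-domain protein, 868.0 kb (chr4:142239402-143107390) scored 0.16 and 0.63 in the controls against -0.10 and 0.88 after deletion. From Gjb5, a connexin of gap junctions, to CK137956, 569.4 kb (chr4:127358165-127927591) scored -0.15 and 0.35 in the controls against -0.23 and 0.85 after deletion. From Jun, a subunit of AP-1, to Fggy, a carbohydrate kinase, 505.3 kb (chr4:95052223-95557479) scored -0.00199 and 0.17 in the controls against -0.43 and 0.05 after deletion. The bins within 50 kb of Jun scored 1.32 and those within 50 kb of Fggy -0.82. In these 3 deserts a mean near 0 covers bins on both sides of 0.

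The other deserts are listed along the chromosome with their means in control 1, control 2, deletion 1 and deletion 2, in that order. The desert from LOC105247297 to LOC100862468 had no scored bin. The next, LOC100862468 to Vmn1r2, had 24 scored bins of 271 and gave -2.53, -1.55, -2.39 and -1.34. Bpnt2 to Fam110b gave -2.42, -1.74, -2.16 and -1.42. Tox to Car8 gave -2.49, -2.11, -2.46 and -1.75. All 3 measured deserts listed so far were late in every profile.

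From Cibar1 to Triqk the values were -1.47, -0.91, -1.50 and -0.73. From Triqk to Runx1t1 they were -1.83, -0.74, -1.68 and -0.64. From Runx1t1, a transcriptional corepressor, to Slc26a7 they were -2.89, -2.16, -2.87 and -1.86. Across these 3 neighbouring deserts the last was the lowest in every profile. Ripk2 to Mmp16 gave -2.62, -2.23, -2.38 and -1.95, and Mmp16 to Cnbd1 gave -1.82, -1.22, -1.77 and -1.09. Pou3f2, a neural transcription factor, to Mms22l gave -2.13, -1.33, -1.98 and -0.79. Fut9 to Manea gave -1.89, -1.17, -1.81 and -0.86. All of these were late in every profile, and in each the profiles numbered 2 scored above those numbered 1.

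Sec61b to Nr4a3 gave -2.08, -1.40, -2.01 and -1.35. Grin3a to Cylc2 gave -2.15, -2.10, -2.16 and -1.53, and Cylc2 to Smc2 gave -2.85, -2.55, -2.54 and -2.45. Tmem38b to Zfp462 was mixed, at -0.79, -0.01, -0.76 and 0.63. Beyond the excluded Klf4 interval, Tlr4 to Brinp1 gave -2.44, -2.81, -2.28 and -2.63, and Brinp1 to Cdk5rap2 gave -2.49, -2.43, -2.64 and -2.33. Both lie in the stretch that also holds the desert from Tnc to Pappa, and both were late in every profile.

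Tle1 to Aldoart1 gave -2.37, -2.25, -2.51 and -1.95. Kdm4c to Dmac1 gave -1.81, -1.24, -2.01 and -1.25, and Dmac1 to Ptprd gave -2.24, -1.35, -2.19 and -1.18. Mpdz to Nfib gave -1.71, -0.89, -1.55 and -0.86. Dmrta1 to Zfp352 gave -2.96, -2.73, -2.98 and -2.36, and Zfp352 to Elavl2 gave -2.46, -2.42, -2.27 and -2.22. Elavl2, a neuronal RNA-binding protein, to Izumo3 gave -2.15, -2.20, -2.09 and -1.97, and Izumo3 to Tusc1 gave -2.36, -2.82, -2.30 and -2.59. Plpp3 to Usp24 was mixed, at -1.18, -0.42, -0.93 and 0.02. Apart from it, each desert of this paragraph was late in every profile.

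Late deserts were spread unevenly along the chromosome. Between 0 and 50 Mb, 18 of 20 measured deserts were late in every profile, with a median mean score of -1.82. Between 50 and 100 Mb, 18 of 20 were late, with a median of -2.33. From 100 Mb to the distal end, 2 of 7 were late, with a median of -0.213. All bins other than those of the deserts averaged 0.415, -0.226 and 1.54 in the same 3 parts, so the distal part scored higher in these bins as well.

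Length separated deserts from short intervals more than it ordered the deserts. The share of intervals late in every profile was 15.2% for those up to 50 kb, 33.1% for 50 to 100 kb, 42.9% for 100 to 200 kb and 30.4% for 200 to 300 kb. It was 50% for 300 to 400 kb and 50% for the 6 intervals of 400 to 500 kb. Among deserts it was 77.8% of 18 for 500 to 750 kb, 80% of 10 for 750 to 1000 kb, 78.6% of 14 for 1000 to 2000 kb and 100% of 5 for 2000 to 3000 kb. Within the deserts the correlation of length with mean score was weak (Pearson r = -0.30 and Spearman rho = -0.29 across 47 deserts). It is given as a description, since the deserts share 4 profiles and neighbouring deserts share a gene.

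**Figure D2:**
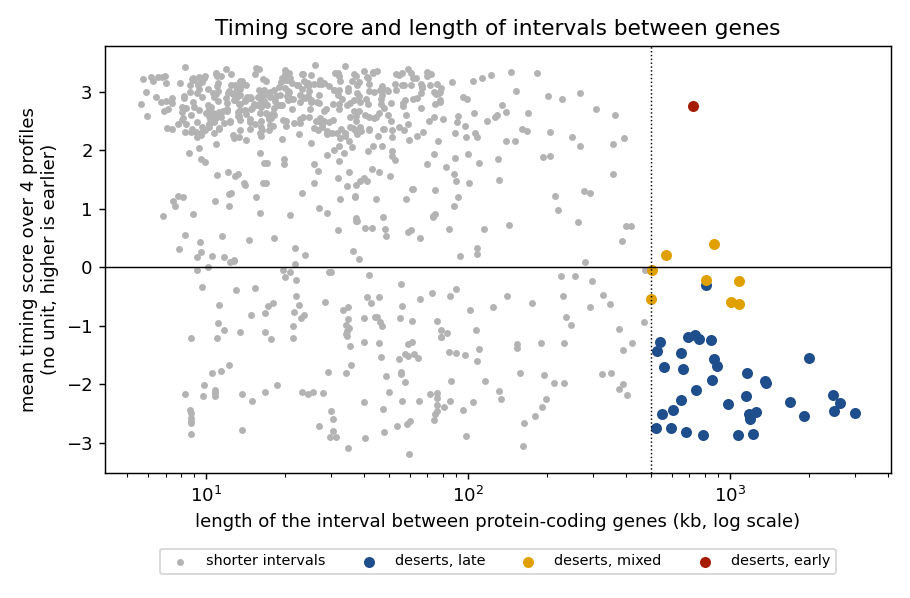
Length in kb (log axis) against mean timing score over 4 profiles (no unit, higher is earlier) for 47 deserts and 739 shorter intervals between protein-coding genes. Deserts are coloured by state and the 500 kb minimum is dotted. Most short intervals lie above 0, 38 of 47 deserts lie below 0 in every profile, and Rragc to Pou3f1 stands alone at 2.75.

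At the 500 kb minimum the scores of neighbouring intervals were scattered. Just inside lay Spaca1 to Akirin2 (500.5 kb, mean -0.54, mixed), Jun to Fggy (505.3 kb, mean -0.05, mixed) and Dmrta1 to Zfp352 (524.1 kb, mean -2.76, late). Just outside lay Ajap1 to A430005L14Rik (473.4 kb, mean -0.04, mixed), C9orf72 to Lingo2 (470.6 kb, mean -0.93, late) and Astn2 to Tlr4 (423.0 kb, mean -1.30, late).

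Inside deserts the score was lower away from the flanking genes. Bins over 100 kb from both genes were lower than bins within 100 kb of either by -0.856 and -0.974 in the 2 controls and by -0.870 and -0.937 in the 2 deletion profiles (mean -0.909 ± 0.056, SD, n = 4 profiles). The common scaling of the columns bears on this SD as well. The pooled drop mixes lengths: deserts of at least 1000 kb held 5064 of the 7814 interior bins but 740 of the 1860 bins near the ends. In these long deserts the mean over profiles was -1.39 within 100 kb of a gene and -2.24 beyond. In the shorter deserts it was -0.884 and -1.55. The interior was below the ends in every profile in 33 of 47 deserts and above them in every profile in 3. The mean over profiles was -1.01 within 50 kb of a gene, -1.16 at 50 to 100 kb, -1.45 at 100 to 200 kb, -1.82 at 200 to 300 kb and -2.13 at 300 to 400 kb. At 400 to 600 kb, a distance reached by 26 deserts, it was -2.47, and at 600 to 1000 kb, reached by 10, it was -2.21. From 1000 to 1500 kb, reached by 5 deserts, it was -2.44. All bins beyond 400 kb were late in every profile. The far classes come from long deserts only, and among the 19 measured deserts of at least 1000 kb the mean went from -1.31 within 50 kb to -2.46 at 400 to 600 kb.

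**Figure D3:**
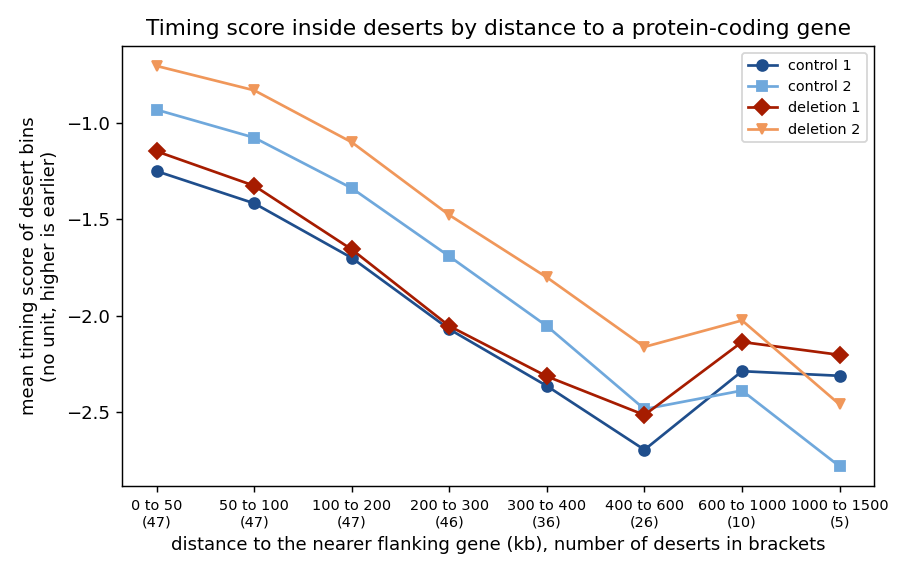
Mean timing score (no unit) of desert bins by distance in kb from the nearer flanking protein-coding gene, with 1 line for each of the 4 profiles. In each profile the score is lower in each class from the ends to 400 to 600 kb and is higher again at 600 to 1000 kb, where 10 deserts remain.

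The deserts with higher interiors were Mmp16 to Cnbd1, Grin3a to Cylc2 and Gm12887 to Gm10573. In the desert between Mmp16, a membrane-bound matrix metalloproteinase, and Cnbd1, the interior was above the ends by 1.13 and 1.18 in the controls and by 1.49 and 1.12 after deletion. Its bins still stayed below 0, with a highest mean of -0.38. In each of the 3 the whole desert was late.

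The ends of a desert, taken as the bins within 50 kb of each gene, gave its shape. Both ends were below 0 in 29 deserts, both were above 0 in 7, and 10 had 1 end on each side of 0, from the mean over profiles. The last are called transition deserts. The remaining 2 deserts could not be classed because an end had no score. The mean over profiles varied inside a desert by 0.302 to 5.53, with a median range of 1.96. The lowest bin lay over 100 kb from both genes in 33 deserts, and the highest lay within 100 kb of a gene in 37.

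The deserts with early ends were Pou3f2 to Mms22l, Tmem38b to Zfp462, Plpp3 to Usp24, Rragc to Pou3f1, Matn1 to Ptpru, Kazn to Prdm2 and Nphp4 to Ajap1. Of these, 6 held a run of at least 50 kb that was late in every profile, and Rragc to Pou3f1 was the exception. The class rests on the mean over profiles, and Pou3f2 to Mms22l reached it narrowly, with end means of 0.36 and 0.01. Both of its ends were below 0 in control 1 and in deletion 1. Nphp4 to Ajap1 borders a gene that was late in every profile, Ajap1 at -0.26. Its last run that was early in every profile stopped 58.2 kb short of that gene. With ends of 100 kb in place of 50 kb, 6 deserts were in this class. Kazn to Prdm2 had end scores of 2.43 and 2.46 and a lowest bin of -1.49 at position 142700000 between them. None of the 29 deserts with late ends held a run of at least 50 kb that was early in every profile. Early runs were found in 14 deserts, 3580 kb in all, and late runs in 46. In no desert did an early run lie wholly more than 100 kb from both ends.

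Among the transition deserts, Gdf6, a ligand of the BMP family, to 2610301B20Rik (chr4:9862346-10874043) had end scores of -1.33 and 2.74. It scored -1.05 and -0.44 in the controls against -1.04 and 0.16 after deletion. The early end is the one that holds the microRNA printed above. Gjb5 to CK137956 ran the other way, from 2.61 to -2.20. Nkain3 to Prdm13, a PR-domain transcription factor of neurons (chr4:20780710-21675864), had ends of -2.80 and 1.90 and scored -2.01 and -1.47 in the controls against -1.95 and -1.36 after deletion.

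1700009N14Rik to Aco1, the cytosolic aconitase that also binds RNA as an iron regulator (chr4:39451781-40143264), had ends of -2.74 and 1.63. It scored -1.76 and -1.06 in the controls against -1.40 and -0.58 after deletion. Spaca1, a sperm acrosome protein, to Akirin2, a nuclear regulator of transcription (chr4:34050068-34550614), had ends of -1.42 and 1.46 and scored -1.07 and -0.23 in the controls against -1.01 and 0.15 after deletion. Tusc1 to Caap1 (chr4:93335512-94500078) had ends of -1.73 and 0.60 and scored -1.87 and -1.78 in the controls against -1.95 and -1.67 after deletion. In all of them the sign of the mean hides a late side and an early side.

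**Figure D4:**
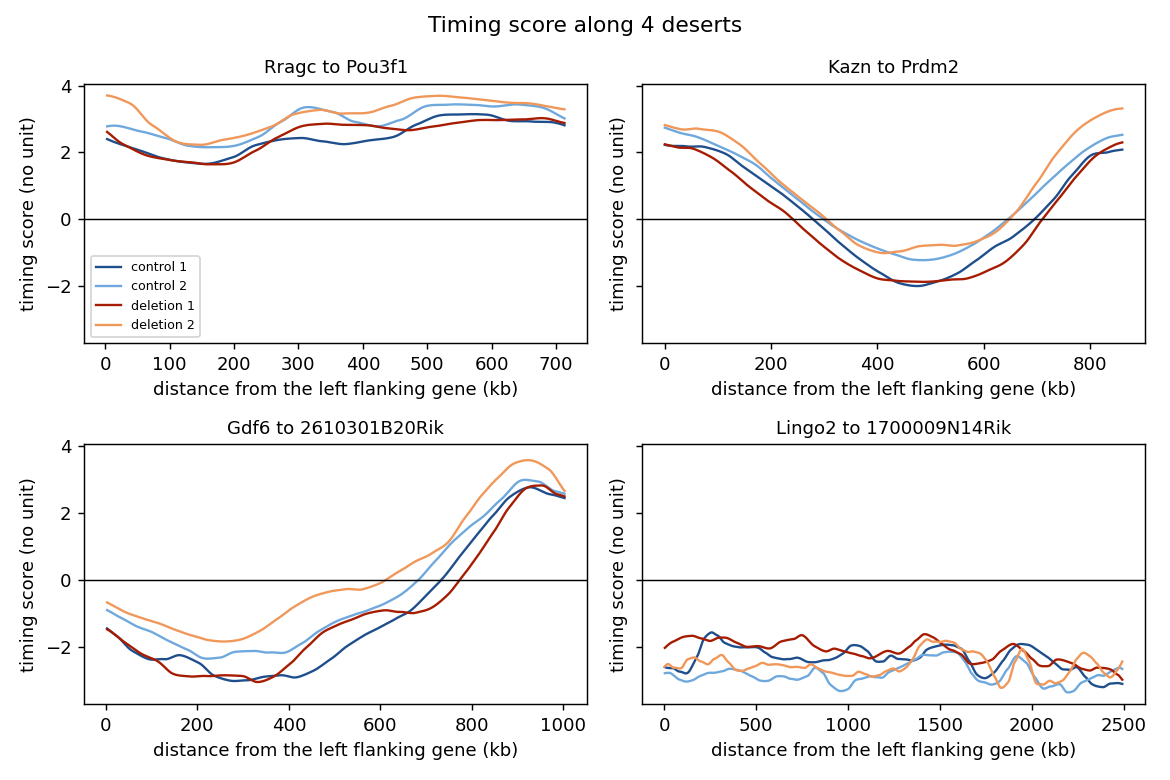
Timing score (no unit, higher is earlier) by distance in kb from the left gene in 4 deserts, with 1 line per profile. Rragc to Pou3f1 stays above 0, Kazn to Prdm2 dips to -1.49 between early ends, Gdf6 to 2610301B20Rik climbs to an early right end, and Lingo2 to 1700009N14Rik stays below 0.

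The genes that flank deserts were later than other protein-coding genes, though not uniformly so. Of the 78 flanking genes with a score, 51 (65.4%) were late in every profile, 23 (29.5%) were early and 4 were mixed, with a median of -1.25. Of all 1301 scored protein-coding genes, the flanking ones included, 216 (16.6%) were late, 1037 (79.7%) were early and 48 were mixed, with a median of 2.55. Bins that overlap a gene were averaged to give its score, and 16 genes flank a desert on each side. The desert scored below both flanking genes in 19 of 46 deserts and above both in 2.

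The state of a desert went with that of its genes. All 25 deserts between a pair of late genes were late in every profile. Of the 11 between an early and a late gene, 7 were late, and of the 5 between a pair of early genes, 0 were. A desert and its genes share neighbouring bins, so these counts describe the same domain from both sides.

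Deserts were also grouped by lists of gene roles, written with earlier results of these data known, and the counts are descriptions. The list of neural and adhesion genes held 15 names, 14 of them on the chromosome, and 6 flanked a desert: Epha7, Megf9, Ptprd, Elavl2, Brinp1 and Lingo2. Their 10 deserts were all late in every profile, with a median of -2.40, beside 38 of 47 and -1.93 for all measured deserts. This list lacks some junction genes, named here after their values were seen. Kazn and Gjb5 flank mixed deserts, and Ajap1 flanks a late one. The list of developmental transcription factors and cofactors held 15 names, 14 on the chromosome, and 9 flanked a desert: Prdm13, Tox, Nfib, Pou3f2, Dmrta1, Tle1, Nfia, Mllt3 and Zfp462. Of their 9 deserts 8 were late and 1 was mixed, with a median of -1.70. The list is not complete: it lacks Pou3f1, Jun and Prdm2, named here after their values were seen, which flank the early desert and 2 of the mixed ones. The list of tandem gene families gave 1 desert, beside the pheromone receptor gene Vmn1r2, which was late.

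Noncoding genes were annotated in most deserts. Wholly inside deserts lay 353 of the 1595 on the chromosome (22.1%), beside the 31.6% of scored bins that deserts hold. Of these genes, 166 are annotated as long noncoding RNAs (lncRNA), 143 as pseudogenes, 4 as transcribed pseudogenes, 19 as small nuclear RNAs, 19 as small nucleolar RNAs, 1 as a microRNA and 1 as a tRNA. A desert overlapped 0 to 18 noncoding genes, with a median of 7, and the median density of measured deserts was 7.20 per Mb. The density was higher in deserts of higher mean score (Pearson r = 0.54 and Spearman rho = 0.49 across 47 deserts that share 4 profiles). Without Rragc to Pou3f1, left out after the data were seen, r was 0.53.

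Desert bins that overlap a lncRNA gene averaged -1.28 over the 4 profiles (1285 bins), against -1.90 for the 8389 desert bins without one. Leaving out Rragc to Pou3f1 gave -1.47 and -1.95. The bins with a lncRNA lay a median of 237 kb from the nearer protein-coding gene and the others 266 kb, and the part of this distance in the difference was not tested. In shorter intervals the same bins averaged 1.41 and 0.603. Within a desert the difference varied widely. Bins with a lncRNA were higher in 22 of 33 deserts and lower in 11, with a median difference of 0.0989 and a range from -0.919 in 1700009N14Rik to Aco1 to 2.22 in Gdf6 to 2610301B20Rik, both transition deserts. Of the 160 lncRNA genes of deserts with a score, 114 were late in every profile, 33 were early and 13 were mixed. By bin, 75.3% of desert bins with a lncRNA gene were late in every profile, against 89.7% of those without one.

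Start windows of desert lncRNA genes had few CG dinucleotides. The median was 3 in 148 windows of 120 genes, with 4 for genes early in every profile and 2 for late ones. The lncRNA starts elsewhere on the chromosome had a median of 4 in 538 windows, with 5 for early and 3 for late genes. At least 10 CG were present in 8.11% of the windows in deserts and in 22.7% of those elsewhere, which puts the 41 of C630043F03Rik at the top of the desert windows. Protein-coding genes that flank deserts had a median of 16 in 64 windows, and the other protein-coding genes 15 in 1303. Late flanking genes had a median of 10 and other late protein-coding genes 3.

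Deletion and control cells were compared over the deserts by fitting limma to all 787 intervals between protein-coding genes and to all 30659 scored positions. No desert of 47 passed a Benjamini-Hochberg adjusted p of 0.05 (lowest adjusted p = 0.997), and 0 had an unadjusted p under 0.05. Over all intervals the shares were 0% and 1.14%. Of the 9674 desert positions, 0 passed the adjusted threshold and 71 (0.734%) had an unadjusted p under 0.05, beside 0% and 0.975% of all positions. The standard error of a desert's difference was 0.356 to 0.402, with a median of 0.368. These standard errors are largely pooled over all intervals and hardly follow the profiles of a single desert. In Epha7 to Map3k7 the SD was 0.108 between controls and 0.0136 between deletion profiles, beside a standard error of 0.356. In this fit, differences of the size seen in deserts could therefore not be told from the pooled spread between profiles. That spread includes a shift shared by profiles of the same number. With the number as a block, a pairing the labels do not state, 233 desert positions (2.41%) passed the adjusted threshold, beside 2.56% of all positions. No desert passed in the block fit over intervals. With 2 profiles a side, an exact permutation test cannot give a p below 0.333.

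The differences were mostly small and positive. The median deletion minus control difference of the deserts was 0.18, with a range of -0.52 to 0.45, and 40 of 47 were above 0. The median was 0.14 over all intervals, of which 71.2% were above 0, and 0.16 over all positions. By replicate number it was 0.06 for the profiles numbered 1 and 0.27 for those numbered 2. It turned to -0.03 without control 1 and to -0.18 without deletion 2, and was 0.38 without control 2 and 0.46 without deletion 1, so its sign rests on single profiles. It was 0.07 with each profile centred on its own median and 0.03 after quantile normalization. Both deletion profiles were above both controls in 7 deserts (14.9%), the same share as the 14.9% of all intervals. They were below both controls in 2 deserts (4.26%), beside 6.35% of all intervals. These shares lie near the background of the chromosome, so they are no result about deserts.

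The highest difference was in the desert from Aldoart1, an aldolase gene of the testis, to Gm11487 (chr4:72852635-73401031). It scored -2.78 and -2.70 in the controls against -2.20 and -2.37 after deletion, a difference of 0.45 ± 0.356 (pooled limma SE, n = 2 and 2). Gm12695 to Nfia, with the scores given above, differed by 0.44 ± 0.356, and in both deserts the groups did not overlap (two-sided exact permutation p = 0.333, the smallest these numbers can give). 1700009N14Rik to Aco1 differed by 0.42 ± 0.378 with overlapping groups, and by 0.01 without deletion 2 to 0.83 without deletion 1. Tmem64 to Calb1, the calcium-binding protein calbindin (chr4:15286754-15881263), scored -3.28 and -2.63 in the controls against -2.86 and -2.23 after deletion, a difference of 0.41 ± 0.371. Leaving out 1 profile moved it between 0.08 and 0.73. There the profiles numbered 2 exceeded those numbered 1 by more than the genotypes differed.

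The most negative difference was in the desert from Matn1, a cartilage matrix protein, to Ptpru, a receptor tyrosine phosphatase (chr4:130955477-131768456). It scored -0.17 and 0.26 in the controls against -0.66 and -0.28 after deletion, a difference of -0.52 ± 0.362 (pooled limma SE, n = 2 and 2). Nphp4, a protein of the cilium base, to Ajap1, a junction protein (chr4:152563185-153373220), scored -0.25 and -0.06 in the controls against -0.40 and -0.49 after deletion, a difference of -0.29 ± 0.357. No other desert had both deletion profiles under both controls. Jun to Fggy differed by -0.28 ± 0.361 with overlapping groups, and by -0.52 to -0.04 with 1 profile left out. Slc24a2, an ion exchanger of neurons and retina, to Mllt3, a subunit of elongation complexes (chr4:87230653-87769924), scored -1.49 and -0.89 in the controls against -1.73 and -1.02 after deletion, a difference of -0.18 ± 0.372. Its sign turned to 0.17 without deletion 1 and to 0.11 without control 2. Each of these deserts had an adjusted p of 0.997 in the limma fit.

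**Figure D5:**
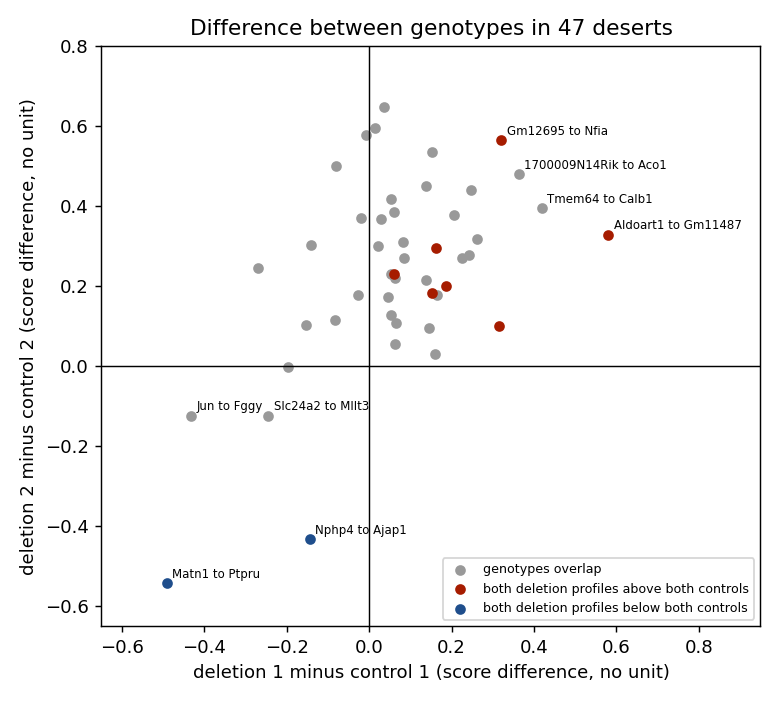
Difference in timing score (no unit) of each measured desert between deletion 1 and control 1 (horizontal axis) and between deletion 2 and control 2 (vertical axis), with 1 point per desert. Of the 47 deserts, 34 are above 0 on both axes and 5 below 0 on both, and Matn1 to Ptpru has the most negative mean difference, -0.52.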

How the data were processed

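Each profile is a deposited column of timing scores, with a value per 5 kb position of chromosome 4, scaled by the authors to a common interquartile range per the file headers and name. Neither the log base nor any smoothing is stated in the sources used here. The submitters' processing notes name Bowtie2, SAMtools, bedtools and mm10 without versions. Each position was taken as a bin start.

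The members and lists were chosen with earlier results of these data known. Genes came from RefSeq (GRCm38.p6), and a desert's score is the mean of the bins wholly inside it. Genotypes were compared in R 4.3.3 by limma 3.58.1 (two-sided lmFit and eBayes, Benjamini-Hochberg), tested on simulated data, over all intervals and all positions. A profile, made of an early and a late library, is 1 replicate. The labels do not say whether replicates were separate cultures, so p-values measure only the spread between these profiles, which may be technical. The limma standard errors are largely pooled over all features.

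Named with the value in each profile were the 4 longest deserts, the 4 highest and 4 lowest by mean score and by difference, early deserts, and the 6 transition deserts with the widest gap between their ends. The other deserts are listed in order so that each member has its values. Alternatives changed the normalization, the profiles used, the replicate number as a block, the limma options, the length minimum, the edge width, the threshold and the genes that bound a desert. The sequence composition of whole deserts was not analysed here.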

Additional observations from a re-analysis of the deposited data

How the results depend on the processing

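No alternative gave a called desert in the limma fits over intervals, including median centring, quantile normalization and the replicate block. With the replicate number as a block in the fit over positions, 233 desert positions (2.41%) passed the adjusted threshold, against 0 without the block, beside 785 (2.56%) of all positions. Plpp3 to Usp24 held 45 of them, higher after deletion, in an unbroken stretch from position 106090000 to 106310000. Matn1 to Ptpru held 36, lower after deletion, in an unbroken stretch from 131045000 to 131220000. Neighbouring bins are not independent, so these are not separate hits. The labels do not say that a number marks a shared culture or day, and the numbers give only 2 pairs, whose deviations from the group means correlated at 0.637 across positions. In the block fit over intervals, 5 deserts (10.6%) had an unadjusted p under 0.05, beside 10.4% of all intervals, and the lowest adjusted p was 0.461. The count of 38 of 47 deserts late in every profile became 48 of 67 with a minimum of 300 kb, where 8 were early. It became 16 of 19 with a minimum of 1000 kb and 11 of 11 where genes of any biotype bound a desert. Early deserts, 1 in the scores as deposited, were 4 with median centring and 2 after quantile normalization or without deletion 1. The desert minus other difference was -2.45 with a minimum of 300 kb, -2.69 with bins over 50 kb from both genes and -2.34 with genes of any biotype. Centring each profile on its own median lowered the median deletion minus control difference of deserts from 0.18 to 0.07, and quantile normalization to 0.03. Leaving out each profile in turn moved the median deletion minus control difference between -0.18 and 0.46, and that of Slc24a2 to Mllt3 between -0.54 and 0.17, with 0.11 without control 2. In 58 comparisons of a summary value with its alternative, some of them named above, the direction was kept. The value stayed within the profile spread, or within 1.5 times for a count. In 9 others the value moved further than that. Among these was each fit that left out a profile for the median difference, whose sign turned without control 1 and without deletion 2. In 1 more, the replicate block over positions, the count of desert positions rose from 0 to 233. Of the differences of single deserts, 78 kept their direction and side of the threshold and 2, both of Slc24a2 to Mllt3, turned. Read depth is unknown, so how far it limits a score could not be stated. A limit on all comparisons is the number of profiles, 2 per genotype.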

Other observations

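Profiles of the same number shifted together in most deserts. The profile numbered 2 was above the profile numbered 1 in both control and deletion cells in 38 of 47 deserts and below it in both in 5. Across deserts the shift in control cells and the shift in deletion cells had a Pearson r of 0.886 (n = 47 deserts that share 4 profiles). The shift differed with length. In deserts of 500 to 1000 kb the median shift was 0.552 for control and 0.672 for deletion cells, and in deserts of 1000 to 2000 kb it was 0.217 and 0.462. In the 5 deserts of 2000 to 3000 kb it was -0.152 and -0.0193. The SD between the control profiles of a desert had a median of 0.334 and ran from 0.0272 to 0.772, and the median SD between the deletion profiles was 0.446.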
